A study of Homo sapiens with 18 samples.

Results

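The 8 genes described here encode amino acid transporters of the SLC7 family and their partner SLC3A2. The members were taken by gene symbol from 58870 genes of the count table, and they were selected on the SKMEL28 comparison, in which SLC7A11 and SLC7A8 are among the clearest falls with MAFG. All 8 symbols were found. RNA was sequenced from WM164, A375 and SKMEL28, which are 3 human melanoma cell lines, each overexpressing either GFP or the small MAF transcription factor MAFG, with 3 libraries in each of the 6 groups. The tagged MAFG was carried by a lentiviral vector with a constitutive EF1 alpha promoter and blasticidin resistance, and the control cells carried GFP in the same vector, so every group was transduced. All cells were grown in RPMI with serum. Whether the 3 libraries of a group were separate cultures is not stated, so p-values measure only the spread between these libraries.

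SLC7A11, SLC7A5, SLC7A8, SLC7A6 and SLC7A7 are light chains that reach the cell surface as heterodimers with the heavy chain SLC3A2, also called CD98hc or 4F2hc. SLC7A11 (xCT) exchanges extracellular cystine for intracellular glutamate and so feeds glutathione synthesis, SLC7A5 (LAT1) and SLC7A8 (LAT2) exchange large neutral amino acids, and SLC7A6 and SLC7A7 (y+LAT2 and y+LAT1) exchange cationic for neutral amino acids. SLC7A1 and SLC7A2 (CAT1 and CAT2) carry arginine, lysine and ornithine without a heavy chain. On GRCh38 (GENCODE annotation), SLC7A11 lies at chr4:138164097-138242349 and SLC7A5 at chr16:87830023-87869507, SLC7A8 at chr14:23125295-23183674, SLC7A1 at chr13:29509414-29595688 and SLC3A2 at chr11:62856004-62888880, and the deposited counts are per gene. Small MAF proteins have no transactivation domain of their own and bind MAF recognition and antioxidant response elements as homodimers or with partners such as NRF2 and BACH1, and SLC7A11 is a known NRF2 and ATF4 target.

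The 250 bases upstream of 4 annotated start sites are printed because the genes behind them either differed most between MAFG and GFP cells or form the shared heavy chain. Windows from the RefSeq promoter table (GRCh38.p14) were searched for 6 of the 8 members, and no window of SLC7A11 or SLC7A2 was searched. Each window ran from 250 bases before to 50 bases after a start site, and 5 motifs were searched on both strands over the whole window. They were the antioxidant response element (ARE) core TGACNNNGC, the AP-1 site TGANTCA, the E-box CACGTG, the M-box letters TCATGTG and the amino acid response element core TGATGNAA. An AP-1 site and an ARE core can overlap. Capitals mark the matches, and the last capitals of SLC7A5 begin an ARE core that runs past the start site. SLC7A8 and SLC3A2 had several windows, and only windows with a match are printed for them. The printed start of SLC3A2 also lies inside the gene body.
SLC7A8 start inside the gene body, chr14:23155321-23155570 (- strand): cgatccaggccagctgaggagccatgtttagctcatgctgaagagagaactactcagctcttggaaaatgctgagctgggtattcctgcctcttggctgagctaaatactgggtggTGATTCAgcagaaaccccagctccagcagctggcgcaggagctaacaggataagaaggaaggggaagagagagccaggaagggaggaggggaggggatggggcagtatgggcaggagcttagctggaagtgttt
SLC7A8 second start inside the gene body, chr14:23154394-23154643 (- strand): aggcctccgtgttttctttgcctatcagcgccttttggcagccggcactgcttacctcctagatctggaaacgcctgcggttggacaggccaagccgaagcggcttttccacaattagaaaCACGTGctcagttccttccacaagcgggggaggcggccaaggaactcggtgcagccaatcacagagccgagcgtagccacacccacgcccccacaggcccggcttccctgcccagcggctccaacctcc
SLC7A5, chr16:87869508-87869757 (- strand): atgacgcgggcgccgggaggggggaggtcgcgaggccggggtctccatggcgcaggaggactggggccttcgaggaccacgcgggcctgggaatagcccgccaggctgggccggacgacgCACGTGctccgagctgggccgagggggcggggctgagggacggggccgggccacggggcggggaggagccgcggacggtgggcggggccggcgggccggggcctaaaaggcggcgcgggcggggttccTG
SLC3A2, chr11:62881449-62881698 (+ strand): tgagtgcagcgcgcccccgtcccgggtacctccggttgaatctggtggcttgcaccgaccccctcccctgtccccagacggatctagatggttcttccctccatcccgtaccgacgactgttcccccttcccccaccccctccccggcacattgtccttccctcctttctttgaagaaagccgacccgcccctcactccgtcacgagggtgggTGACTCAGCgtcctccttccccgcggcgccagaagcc

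SLC7A8 had 4 start site windows. One of those inside the gene held an AP-1 match, TGATTCA, beginning at position -134 from the start site, another held an E-box beginning at -129, and the window of the most upstream start held no match to any of the 5 motifs. The AP-1 match also lay in an overlapping window, so it is 1 site and not 2. SLC7A5 had an E-box beginning at -130. In SLC3A2 the letters TGACTCAGC, beginning at -37, matched the ARE core and, in their first part, the AP-1 site, and an amino acid response element core began at 37 in the transcribed part of the same window. The other windows of SLC3A2, of 3 in all, belong to starts further upstream and held no match to the 5 motifs. SLC7A1 held an ARE core beginning at -85 and an amino acid response element core beginning at 7, SLC7A6 held 2 ARE cores, and SLC7A7 held 1 ARE core and 1 E-box in different windows of its 3. Of all 35116 windows in the table, 13.35% held the ARE core, 7.71% the AP-1 site, 7.26% the E-box, 2.92% the M-box letters and 3.62% the amino acid response element core. A match is a description of these letters and not evidence of binding.

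The libraries held 20122172 to 39025042 counts (median 31061375), and replicates correlated at 0.970 to 0.985 on the log2 scale. MAFG itself was higher in the MAFG libraries of each line, with means of 2.89 TPM in GFP and 24.5 TPM in MAFG cells of WM164, 4.22 and 25.2 TPM in A375, and 3.96 and 17.0 TPM in SKMEL28, where TPM is a transcript level scaled to transcript length and to the library. MAFG replicate 1 of A375 stood apart from its 2 replicates, with a mean chi-square per gene of 68.7 and 96.7 against them and 5.9 to 30.2 in all other replicate pairs. Of 8 melanocyte lineage markers, 7 reached 1 TPM in WM164 and 8 in SKMEL28. In A375 only 2 did. MLANA and TYR had 0 counts in every A375 library, and DCT had 0 with GFP and 0 to 1 with MAFG. The summed marker level in WM164 was 1016 to 1386 TPM in GFP and 739 to 837 TPM in MAFG cells. In SKMEL28 it was 2027 to 2187 TPM in GFP and 1612 to 1804 TPM in MAFG cells, and in A375, where SOX10 had a mean of 2.61 TPM in GFP and 32.1 TPM in MAFG cells, 12.2 to 13.1 and 37.0 to 48.6 TPM. The part of these marker levels in the transporter results was not tested. Fibroblast, leukocyte and endothelial markers summed to at most 12.7, 0.67 and 0.60 TPM, and the keratinocyte markers, of which 1 of 5 reached 1 TPM, to at most 65.9 TPM.

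**Figure D1:**
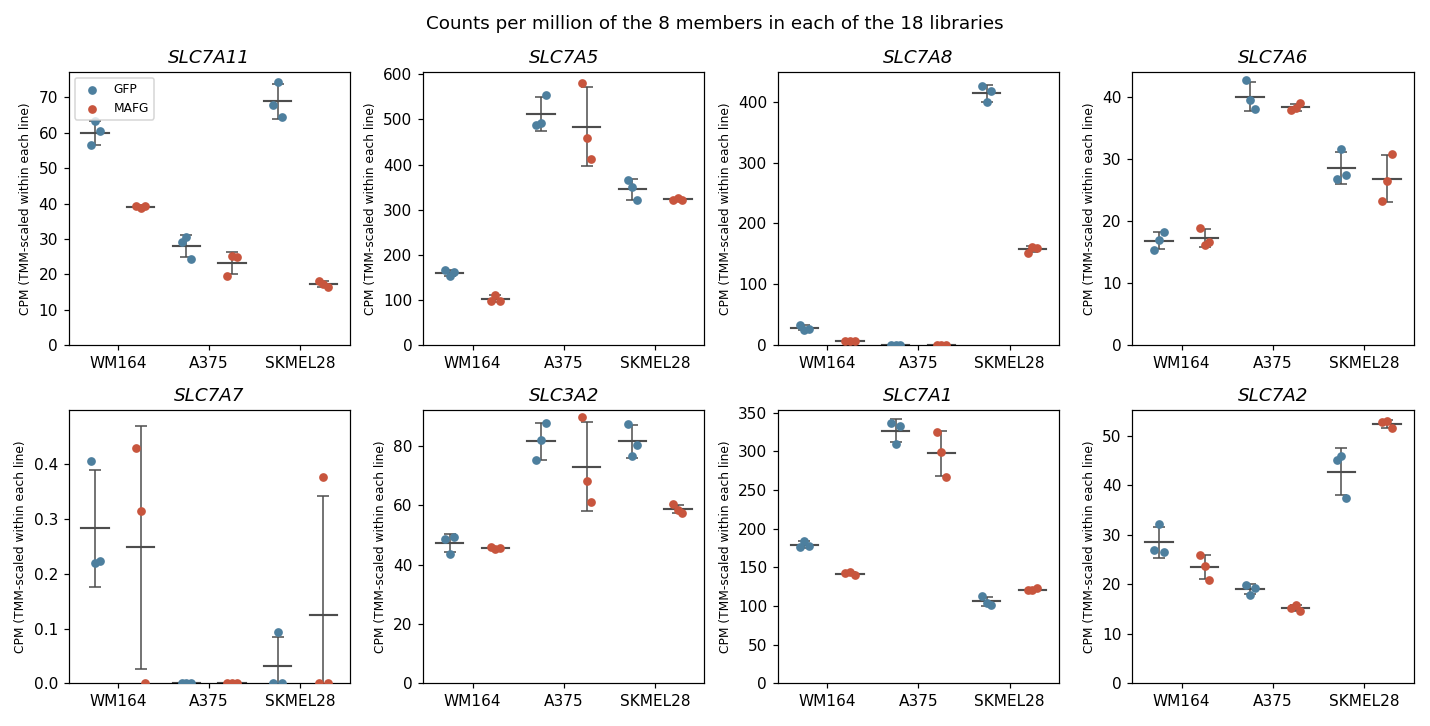
CPM (counts scaled to library size within each line) of the 8 members, with 1 point per library, a horizontal line at the mean of the 3 libraries and a bar for ± SD. SLC7A8 in SKMEL28 GFP cells lay between 399 and 426 CPM and in MAFG cells between 152 and 161 CPM, SLC7A11 was lower with MAFG in WM164 and SKMEL28, and SLC7A7 stayed under 0.5 CPM everywhere.

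In WM164, 5 of the 7 transporters with enough counts fell with MAFG and none rose, beside 15.6% of 15919 genes that fell and 16.2% that rose. The largest of these changes was in SLC7A8, which fell 4.06-fold, followed by SLC7A5 and SLC7A11, which fell 1.56-fold and 1.54-fold, and the arginine transporters SLC7A1 and SLC7A2, which fell 1.26-fold and 1.22-fold. SLC3A2 and SLC7A6 did not pass the test. This comparison asks whether raising MAFG in a melanoma line with melanocytic markers changes the transcript levels of the transporters. A change was tested with edgeR across all genes, and a gene passed when its Benjamini-Hochberg adjusted p was at most 0.05. In bulk RNA, fewer cells with a transcript and less of it per cell cannot be told apart.

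Values per library are given in CPM, counts scaled to the library size. SLC7A11 had 56.5, 63.2 and 60.4 CPM in the GFP libraries of WM164 and 39.4, 38.7 and 39.2 CPM in the MAFG libraries. The groups did not overlap, and the cystine transporter fell by 0.62 on the log2 scale (SE 0.07, edgeR adjusted p = 1.07e-06). SLC7A5 had 166, 153 and 161 CPM with GFP and 98.3, 111 and 98.9 CPM with MAFG. The leucine transporter was lower in all 3 MAFG libraries than in any GFP library, and fell by 0.64 (SE 0.06, edgeR adjusted p = 2.19e-07). SLC7A8 had 33.4, 25.6 and 26.9 CPM with GFP and 6.92, 6.88 and 7.34 CPM with MAFG. Its MAFG values lay within a narrow range far below the lowest GFP value, and it fell by 2.02 (SE 0.11, edgeR adjusted p = 1.29e-10). Of the 7 tested members, SLC7A8 was the only one past both the adjusted p and a log2 fold change of 1 in size, against 6.94% of all 15919 genes tested.

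The arginine transporters changed less. SLC7A1, the main uptake route for arginine in most cells, had 177, 185 and 177 CPM with GFP and 143, 144 and 140 CPM with MAFG. It fell by 0.34 (SE 0.05, edgeR adjusted p = 6.26e-05), with no overlap between the groups. SLC7A2 had 26.9, 32.2 and 26.6 CPM with GFP and 25.8, 23.7 and 20.9 CPM with MAFG. Its highest MAFG library lay just under its lowest GFP library, and it fell by 0.28 (SE 0.10, edgeR adjusted p = 0.0326). This call was lost without GFP replicate 2 (adjusted p = 0.166), without MAFG replicate 2 (0.076) or without MAFG replicate 3 (0.133).

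The heavy chain SLC3A2 had 48.7, 43.7 and 49.2 CPM with GFP and 45.9, 45.2 and 45.7 CPM with MAFG. The groups overlapped, with a log2 fold change of -0.05 (95% interval -0.18 to 0.09, edgeR adjusted p = 0.649). SLC7A6 also overlapped, at 15.4 to 18.3 CPM with GFP and 16.2 to 19.0 CPM with MAFG (log2 fold change 0.03, 95% interval -0.16 to 0.23, edgeR adjusted p = 0.829). SLC7A6 shares its locus with SLC7A6OS on the opposite strand, which had 580 to 1013 counts, and whether the counting used strand is not stated. SLC7A7 had 0 to 13 counts and was not tested. The members' median log2 fold change was -0.34, beside 0.00 over all genes. All 7 tested members had at least 197 counts in each WM164 library. On the deposited TPM values, on which the median of all genes lay 0.14 to 0.16 above 0, limma on log2(TPM + 1) passed 2 of the members, SLC7A5 and SLC7A8, and limma on log2(TPM + 0.1) passed 1, SLC7A8.

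**Figure D2:**
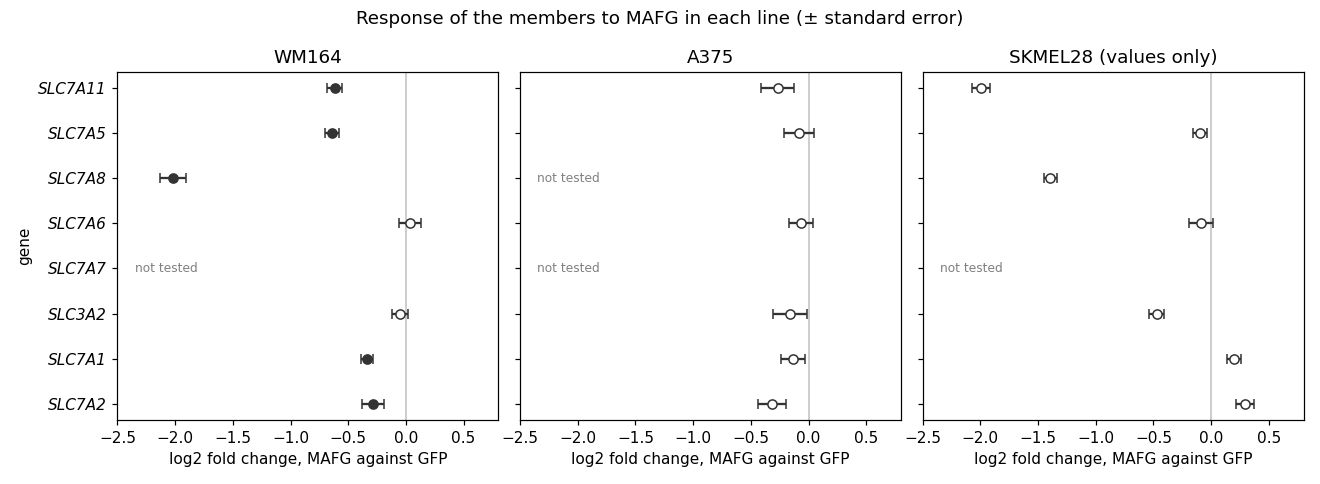
Log2 fold change of each member, MAFG against GFP, in the 3 lines, with bars for ± SE. Filled points passed the edgeR test, and SKMEL28 is shown as values only because the members were selected on it. In WM164 the filled points run from -0.28 for SLC7A2 to -2.02 for SLC7A8, and no A375 point is filled.

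In A375, none of the 6 tested members passed, with edgeR adjusted p-values between 0.606 and 0.997. At an unadjusted p under 0.05, 1 of them, SLC7A2, was lower, and DESeq2 passed 0. Few genes passed in this line, where 0.665% of 15779 genes passed both thresholds and 0.0634% were lower and 0.780% higher at the adjusted p alone. The SE of each tested member was larger than in WM164, at 0.14 against 0.07 for SLC7A11 and 0.13 against 0.06 for SLC7A5. The low share that passed therefore does not by itself show smaller changes. The question here is whether a line with little of the melanocyte program shows the same transporter response. SLC7A11 had 29.0, 30.4 and 24.4 CPM with GFP and 19.6, 25.1 and 24.99 CPM with MAFG. The groups overlapped, and the log2 fold change was -0.27 with a 95% interval from -0.55 to 0.01.

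SLC7A5 had 488, 493 and 555 CPM with GFP in A375 and 581, 458 and 412 CPM with MAFG. The highest value was in MAFG replicate 1, the library that stood apart, and the log2 fold change was -0.08 (95% interval -0.33 to 0.17). SLC3A2 was high in the same library, with 75.3, 81.8 and 87.7 CPM in the GFP libraries and 89.7, 68.3 and 61.0 CPM in the MAFG libraries (log2 fold change -0.16, 95% interval -0.45 to 0.12). Without MAFG replicate 1 the log2 fold change of SLC3A2 was -0.34 (edgeR adjusted p = 0.0986) and without MAFG replicate 3 it was -0.047, and that of SLC7A5 was -0.24 and 0.021. In TPM, MAFG replicate 1 did not stand out for SLC3A2, since the MAFG libraries had 30.5, 29.0 and 27.7 TPM and the GFP libraries 36.5, 34.8 and 36.1 TPM, without overlap. On log2(TPM + 1) the median of all genes in A375 was -0.10, and relative to it SLC3A2 was at -0.19. SLC7A2 was the only member whose groups did not overlap in CPM, at 17.9 to 19.9 CPM with GFP and 14.6 to 15.9 CPM with MAFG (log2 fold change -0.32, SE 0.12, edgeR adjusted p = 0.606). SLC7A1 had a log2 fold change of -0.14 (95% interval -0.33 to 0.06) and SLC7A6 one of -0.06 (95% interval -0.27 to 0.14). SLC7A8 had 10, 1 and 0 counts with GFP and 5, 0 and 0 counts with MAFG, and SLC7A7 had 0 counts in every A375 library, so neither was tested.

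The responses of WM164 and A375 were compared directly as the difference of their log2 fold changes. SLC7A5 was the only member whose difference passed, at -0.57 (SE 0.15, edgeR adjusted p = 0.0178), so its fall was larger in WM164. In the same comparison 9.21% of 18767 genes passed the adjusted p alone and 4.39% also the fold limit, which SLC7A5 did not reach. The call was lost with the replicate number as a block (adjusted p = 0.0657), on TPM (0.356 and 0.357), and without WM164 MAFG replicate 1 (0.053), WM164 MAFG replicate 3 (0.0522) or A375 GFP replicate 1 (0.0527). The difference for SLC7A11 was -0.35 (95% interval -0.62 to -0.08, edgeR adjusted p = 0.127), and without A375 MAFG replicate 1 it was -0.44 with an adjusted p of 0.0204. That for SLC7A1 was -0.21 (95% interval -0.42 to 0.00, edgeR adjusted p = 0.287). SLC7A2, SLC7A6 and SLC3A2 differed by 0.03, 0.09 and 0.10, with adjusted p-values of 0.989, 0.826 and 0.82. For SLC3A2 the difference was 0.47 on log2(TPM + 1), which passed (limma adjusted p = 0.0452), 0.49 on log2(TPM + 0.1) (0.0616), and 0.31 without A375 MAFG replicate 1 (edgeR adjusted p = 0.0623) but -0.026 without A375 MAFG replicate 3. The median difference over all genes was 0.21 and 0.26 on these TPM scales, and relative to it SLC3A2 was at 0.26 and 0.23. With 0 to 10 counts in A375, no difference is given for SLC7A8 and SLC7A7.

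In SKMEL28 the values are given as a description, with no test, because this comparison chose the members. SLC7A11 had 67.8, 74.3 and 64.5 CPM with GFP and 18.2, 17.1 and 16.5 CPM with MAFG. The groups lay far apart, with a log2 fold change of -1.99 (SE 0.08), or 3.98-fold lower. SLC7A8 had 426, 399 and 417 CPM with GFP and 152, 161 and 160 CPM with MAFG, a log2 fold change of -1.39 (SE 0.06), or 2.63-fold lower. These 2 members lay past both thresholds, as did 4.74% of 15523 genes, from which nothing is read since the rule used this contrast.

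The heavy chain SLC3A2 had 87.5, 76.5 and 80.4 CPM with GFP and 60.4, 58.3 and 57.5 CPM with MAFG in SKMEL28. It was lower in each MAFG library than in any GFP library, with a log2 fold change of -0.47 (SE 0.06). Beside the lower cystine transporter, the leucine transporter SLC7A5 overlapped between the groups, with 366, 349 and 320 CPM with GFP and 323, 326 and 321 CPM with MAFG (log2 fold change -0.10, SE 0.06). In TPM its groups did not overlap, at 65.4 to 77.6 TPM with GFP and 56.2 to 62.3 TPM with MAFG, and the log2 fold change was -0.28 on both TPM scales. The median of all genes in SKMEL28 was -0.14 on log2(TPM + 1) and -0.17 on log2(TPM + 0.1). Relative to it SLC7A5 was at -0.13 and -0.11. SLC7A1 had 113, 104 and 101 CPM with GFP and 120, 120 and 123 CPM with MAFG. SLC7A2 had 45.1, 45.9 and 37.4 CPM with GFP and 52.8, 53.1 and 51.5 CPM with MAFG. Both arginine transporters were higher in all 3 MAFG libraries in CPM, with log2 fold changes of 0.20 (SE 0.06) and 0.30 (SE 0.08), where in WM164 both were lower. In TPM their SKMEL28 groups overlapped, at 11.3 to 13.6 TPM with GFP and 12.3 to 13.3 TPM with MAFG for SLC7A1 and at 4.17 to 5.93 and 4.94 to 5.50 TPM for SLC7A2, and the log2 fold changes on log2(TPM + 1) were 0.035 and 0.054. SLC7A6 overlapped between the groups (log2 fold change -0.09, SE 0.10), and SLC7A7 had 0 to 11 counts.

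Light chains share 1 heavy chain, so their levels were also set beside each other in TPM. In SKMEL28 GFP cells the 5 light chains summed to 203 ± 10.5 TPM (SD, n = 3), of which SLC7A8 made up 57.8 ± 1.42% and SLC7A5 35.9 ± 1.45%. In SKMEL28 MAFG cells the sum was 108 ± 5.85 TPM, with SLC7A8 at 38.0 ± 0.700% and SLC7A5 at 55.5 ± 1.05%. The most abundant light chain transcript was thus SLC7A8 with GFP and SLC7A5 with MAFG in each library of this line. In WM164 SLC7A5 made up most of the sum in both groups, which was 35.8 ± 2.86 TPM with GFP and 24.1 ± 1.89 TPM with MAFG. SLC7A5 was 62.9 ± 1.23% of it with GFP and 68.4 ± 3.86% with MAFG, while SLC7A8 was 18.3 ± 1.41% with GFP and 8.28 ± 1.47% with MAFG.

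In A375 SLC7A5 stood nearly alone, at 91.1 ± 1.72% of 98.6 ± 7.91 TPM with GFP and 90.3 ± 2.71% of 88.5 ± 7.64 TPM with MAFG. SLC3A2 divided by the light chain sum was 0.505 ± 0.027 with GFP and 0.855 ± 0.020 with MAFG in WM164 (SD, n = 3). It was 0.365 ± 0.028 and 0.330 ± 0.020 in A375, and 0.212 ± 0.0081 and 0.267 ± 0.017 in SKMEL28. The ratio was higher in every MAFG library than in any GFP library in WM164 and SKMEL28, and the groups overlapped in A375. In SKMEL28 nothing is read from this, since SLC7A8, on which the members were selected, made up 57.8% of the light chain sum with GFP. SLC3A2 itself was lower there, at 42.9 ± 2.12 TPM with GFP and 28.7 ± 1.16 TPM with MAFG. No test was run on these shares and ratios.

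**Figure D3:**
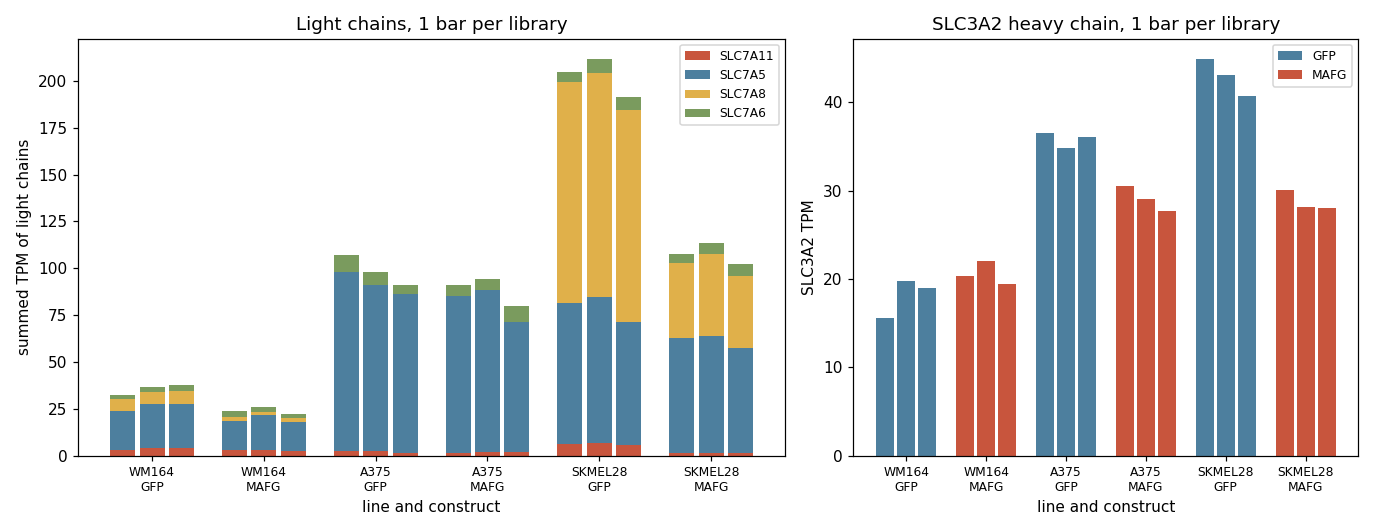
Left, TPM of the light chains SLC7A11, SLC7A5, SLC7A8 and SLC7A6 stacked for each library, and right, TPM of the heavy chain SLC3A2, with 1 bar per library from 3 libraries of each line and construct. The SLC7A8 part is the largest in SKMEL28 GFP cells (113 to 120 TPM) and is 38.6 to 44.2 TPM with MAFG, while A375 is almost all SLC7A5.

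Basal transporter levels differed between the lines. Between the GFP cells of A375 and WM164, all 8 members passed the adjusted p, as did 71.5% of 18767 genes, and 5 also the fold limit, as did 46.7%. SLC7A5, SLC7A6, SLC7A1 and SLC3A2 were higher in A375, by log2 differences of 1.44 (SE 0.11, edgeR adjusted p = 1.17e-10), 1.02 (SE 0.11, edgeR adjusted p = 4.27e-08), 0.63 (SE 0.08, edgeR adjusted p = 3.04e-07) and 0.56 (SE 0.11, edgeR adjusted p = 2e-04). SLC7A11 and SLC7A2 were lower in A375, with log2 differences of -1.34 (SE 0.10, edgeR adjusted p = 1.07e-10) and -0.82 (SE 0.10, edgeR adjusted p = 5.82e-07). SLC7A8 had 721 to 987 counts in WM164 GFP cells and 0 to 10 in A375 (edgeR adjusted p = 1.25e-15). SLC7A7 had 6 to 12 counts in WM164 and none in A375, which makes it at least 3.67-fold higher in WM164 against a floor of 3 counts per A375 library, with an edgeR adjusted p of 0.0133 that became 0.0766 with the replicate block.

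Over the 6 groups, the TPM level of SLC7A11 was highest in SKMEL28 GFP cells (6.21 ± 0.608, SD, n = 3), followed by WM164 GFP (3.78 ± 0.627) and WM164 MAFG (2.69 ± 0.105), none of which overlapped. The lowest levels were those of A375 GFP (2.07 ± 0.454), A375 MAFG (1.59 ± 0.384) and SKMEL28 MAFG (1.35 ± 0.117), whose ranges overlapped from 1 group to the next. SLC7A8 ran from 117 ± 3.27 TPM in SKMEL28 GFP cells through 41.0 ± 2.87 in SKMEL28 MAFG, 6.51 ± 0.382 in WM164 GFP and 1.98 ± 0.308 in WM164 MAFG to under 0.1 TPM in every A375 library. No neighbours in that order overlapped except the A375 groups. SLC7A5 was highest in A375, at 89.7 ± 5.59 TPM with GFP and 80.1 ± 9.10 with MAFG, and lowest in WM164, at 22.5 ± 1.56 and 16.5 ± 1.81 TPM. SKMEL28 lay between, with 72.8 ± 6.49 TPM for GFP and 59.8 ± 3.18 TPM for MAFG. A375 MAFG overlapped both A375 GFP and SKMEL28 GFP. The pseudogenes SLC7A5P1 and SLC7A5P2 are near copies of part of SLC7A5, so reads could be split among them, and together they had 0.191 to 1.86% of its counts. The 7 other SLC7 and SLC3 genes looked for, SLC7A3, SLC7A4, SLC7A9, SLC7A10, SLC7A13, SLC7A14 and SLC3A1, had 0 to 8 counts in each library and were not tested in any line.

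Among the genes most like SLC7A11 over the 18 libraries were GADL1 and HADHA, with Pearson r of 0.933 and 0.930 on log2 CPM. For SLC7A8 they were OSTM1, TNS1 and SOGA3 (0.995, 0.993 and 0.990), and for SLC7A5 they were CDCA8, GATAD2A and NUP93 (0.985, 0.985 and 0.983). These correlations rest largely on differences between the means of the 6 groups. For SLC7A11 those include the SKMEL28 comparison that chose the members, in which HADHA had 194 CPM with GFP and 114 CPM with MAFG. Within the groups the correlations ranged from -0.385 for HADHA to 0.696 for GATAD2A, and they are given as a description. GADL1 lay near the floor, with 0 counts in every A375 library and at most 17 counts in any other library.

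The genes around the transporters were counted in 6 lists, and in A375 none of their 110 tested genes passed with edgeR or with DESeq2, with 3 at an unadjusted p under 0.05. In WM164, where 16.2% of all genes rose and 15.6% fell, 6 of 17 tested transporters of other families rose and 6 fell. SLC1A1, a glutamate and cysteine carrier, rose by 1.46 (SE 0.10, edgeR adjusted p = 3.9e-09), the glycine transporter SLC6A9 by 1.28 (SE 0.24, edgeR adjusted p = 4e-04) and SLC43A2, another neutral amino acid carrier (LAT4), by 1.08 (SE 0.13, edgeR adjusted p = 4.8e-06). Of 22 genes of amino acid sensing by mTORC1, the pathway that leucine uptake feeds, 9 fell and 1 rose, with a list median of -0.17. RRAGD, LAMTOR4 and FNIP2 had log2 fold changes of -0.42, -0.36 and -0.34. Of 20 ATF4 target genes, 7 rose and 2 fell, among them ALDH1L2 (1.24) and WARS1 (0.69), which rose, and PHGDH (-0.53), which fell.

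Of 16 genes of cysteine, glutathione and ferroptosis defence in WM164, 4 rose and 4 fell, against 16.2% and 15.6% of all genes. The transpeptidase GGT1 had a log2 fold change of 0.65, CBS of 0.40 and CTH of -0.44, the last of these being the enzyme that makes cysteine from cystathionine. Of 15 transcription factors and kinases of the amino acid and oxidative stress responses, 3 rose and 3 fell, with NUPR1 at -0.96, ATF5 at 0.44 and BACH1 at 0.32. Of 16 genes of leucine, glutamine and arginine use, 3 rose and 4 fell, with AZIN2 at -0.59, ODC1, the first enzyme of polyamine synthesis, at 0.52 and SMS at -0.45. The list medians were -0.12, 0.10 and -0.03.

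In SKMEL28, 15.3% of all genes were lower and 14.6% higher at the adjusted p alone. Of 16 genes of cysteine, glutathione and ferroptosis defence, 5 fell and 3 rose, and the median was -0.18. CHAC1, which degrades glutathione, fell by 2.56 (SE 0.56, edgeR adjusted p = 0.00239), GCLM, a subunit of the first enzyme of glutathione synthesis, by 0.56 and GPX1 by 0.46. Of 16 genes of leucine, glutamine and arginine use, 7 rose and 4 fell. ASS1, which rebuilds arginine from citrulline, rose by 1.88 (SE 0.50, edgeR adjusted p = 0.00989), while BCAT2, a branched-chain aminotransferase, fell by 0.91. Of 20 ATF4 targets, 5 fell and 2 rose, with VLDLR at -0.81, TRIB3 at -0.61 and PSAT1 at 0.53. Of 17 other transporters, 4 fell and 1 rose, with SLC36A4 at 0.78, the taurine transporter SLC6A6 at -0.72 and the glutamine transporter SLC1A5 at -0.36. Of the 15 regulators, 3 fell and 2 rose, with ATF5 at -0.77 and NFE2L2, which encodes NRF2, at 0.29. Of 22 mTORC1 sensing genes, 2 fell and 1 rose, with FNIP2 at -0.48, RRAGA at 0.39 and FLCN at -0.34.

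**Figure D4:**
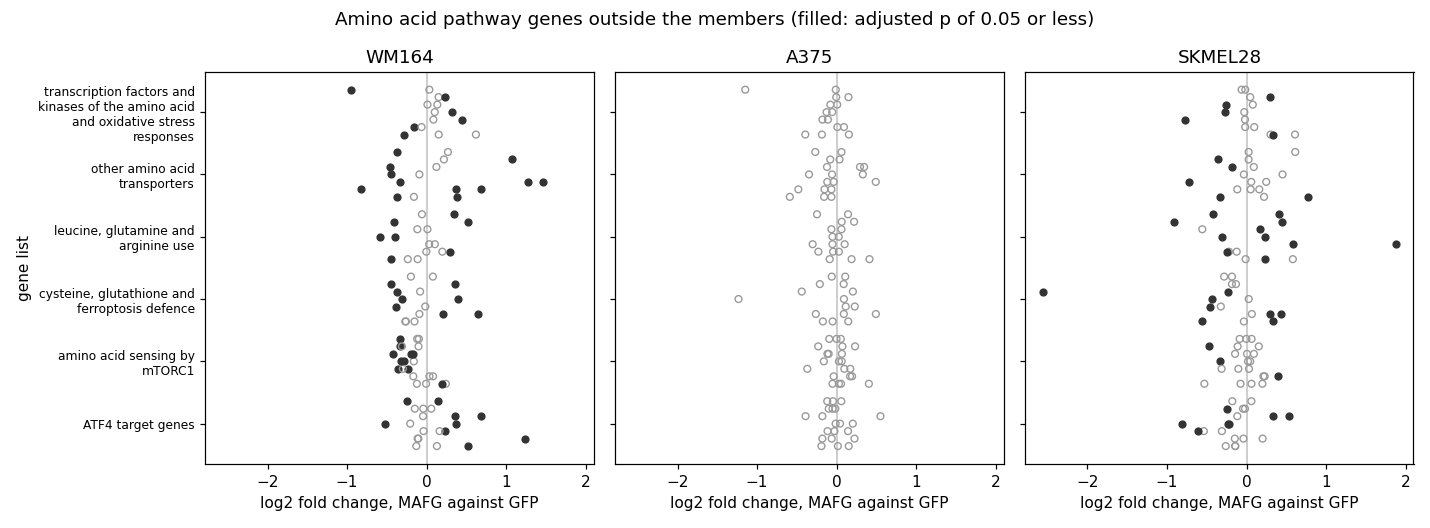
Log2 fold change, MAFG against GFP, of the genes of 6 amino acid lists in each line, with 1 point per gene and filled points for genes that passed the edgeR test. No point is filled in A375, mTORC1 sensing genes lie mostly left of 0 in WM164 (9 fell and 1 rose), and CHAC1 (-2.56) and ASS1 (1.88) are the outermost filled points in SKMEL28.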

How the data were processed

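Total RNA of the 18 libraries was sequenced by the submitters. Per their processing notes, reads were trimmed with cutadapt 1.8.1, aligned to GRCh38 with STAR 2.7.7a and quantified with RSEM 1.3.0, and DESeq2 is also named. The labels name a non-stranded library kit and the published methods a strand-specific one. The authors deposited raw counts per gene and TPM values.

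The deposited counts were fitted here with edgeR 4.0.16 (TMM scaling, filterByExpr, quasi-likelihood test) within each line, and over all 18 libraries for comparisons between lines. A gene passed at an adjusted p of 0.05, and a second call also asked for a log2 fold change of 1 in size. Alternatives were DESeq2 1.42.0, its size factors, other count filters, the replicate block, limma 3.58.1 on log2(TPM + 1) and log2(TPM + 0.1), and each library left out. The scripts were tested on simulated counts. The members, gene lists and tests were chosen with earlier results of these data known. Up to 3 genes per list and line are named, those with the largest change among genes that passed. Some are not reported here. SAMTOR was not matched, protein sequences were not used here, and intervals cover the spread between libraries.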

Additional observations from a re-analysis of the deposited data

Results flagged for a closer look

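The response of SLC7A5 to MAFG differed between WM164 and A375 by -0.57 on the log2 scale in the test of the difference itself (edgeR adjusted p = 0.0178). This call was lost with the replicate number as a block, on both TPM scales and with some single libraries left out. In CPM, SLC7A1 was lower in all 3 MAFG libraries of WM164 (log2 fold change -0.34) and higher in all 3 of SKMEL28 (0.20). SLC7A2 was lower in all MAFG libraries of WM164 (-0.28) and A375 (-0.32) and higher in all of SKMEL28 (0.30). In TPM the groups of both genes overlapped in WM164 and in SKMEL28, where the log2 fold changes on log2(TPM + 1) were 0.035 for SLC7A1 and 0.054 for SLC7A2. The median of all genes in SKMEL28 was -0.14 on that scale, and relative to it SLC7A1 was at 0.18 and SLC7A2 at 0.20. The differences of SLC7A1 and SLC7A2 between SKMEL28 and the other lines were not tested, since the members were selected on SKMEL28.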

How the results depend on the processing

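In WM164, 1105 genes were called in all, and 734 with a minimum of 10 counts per library, 383 with limma on log2(TPM + 1), 602 on log2(TPM + 0.1) and 5065 at the adjusted p alone. In A375, 105 were called, 173 with DESeq2, 216 with no count filter, 64 with that minimum, 24 and 28 on the TPM scales, 311 with all 18 libraries in one model, and 55 to 153 with 1 library left out. In SKMEL28, 736 were called, 218 and 395 on the TPM scales and 4640 at the adjusted p alone. The response differed in 823 genes, about 3.8e+02 with that minimum, 430 on log2(TPM + 1) and 1728 at the adjusted p alone. The GFP level differed in 8756, 4607, 5722 and 13415 genes under the same settings.

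The replicate numbers did not pair the samples (correlations of deviations from -0.033 to 0.012 for equal numbers). With the replicate block, 64 genes were called in A375, and the response of SLC7A5 (-0.55) and the level of SLC7A7 missed the threshold. It changed no other member call.

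Members passing in WM164 numbered 5, and 2 and 1 on the TPM scales. SLC7A2 also missed with all 18 libraries in one model (-0.28, edgeR adjusted p = 0.0734). On the TPM scales SLC7A6 became -0.041 and -0.052 and SLC3A2 0.18 and 0.19, and the response difference became -0.063 and -0.079 for SLC7A6 and 0.12 and 0.12 for SLC7A1. SLC7A6 in A375 became 0.022 and 0.027. The cause was not tested. Leaving out 1 library put SLC7A6 in WM164 between -0.037 and 0.087, SLC7A5 in A375 between -0.236 and 0.021, and the response difference between -0.039 and 0.13 for SLC7A2 and between -0.026 and 0.307 for SLC3A2.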
